A study of Bos taurus with 24 samples.

Results

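The collagen, laminin and basement membrane genes of bovine granulosa cells were examined across 5 groups of libraries. The set holds every gene named as a collagen chain or as a laminin alpha, beta or gamma chain, plus NID1, NID2, HSPG2, AGRN, FN1, DCN, LUM and POSTN. It comprised 53 of the 27607 genes of the deposited count table: 34 collagen chains, 11 laminin chains and the 8 added genes. A further 10 collagen symbols fit the same naming rule but could not be tied to an identifier of the table and are not analysed here: COL5A2, COL4A4, COL24A1, COL9A2, COL25A1, COL23A1, COL19A1, COL9A1, COL9A3 and COL22A1.

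Granulosa cells are the somatic cells of the ovarian follicle, the structure in which an oocyte grows. The study asked whether such cells taken at different follicle stages can rebuild a complex with a stripped oocyte and regrow the thin processes that reach it. RNA was sequenced from 5 libraries of late_CC (cumulus cells, which surround the oocyte, of late antral follicles), 5 of late_MGC (mural granulosa cells, which line the wall, of late antral follicles), 5 of early_CC and 5 of early_MGC (the same cell types of early antral follicles) and 4 of secondary_GC (granulosa cells of secondary follicles, a stage before the fluid-filled antrum). The labels name no treatment, breed, animal age or follicle diameter and do not say whether libraries came from separate animals or pools, so every p-value measures only the spread between these libraries, which may be technical.

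A basement membrane is a thin sheet of matrix on which epithelial layers rest. Laminin trimers of an alpha, a beta and a gamma chain and trimers of type IV collagen each form a network, nidogens link the networks, and the proteoglycans perlecan (HSPG2), agrin (AGRN) and collagen XVIII (COL18A1) bind to them. In the follicle such a sheet separates the mural granulosa layer from the theca, the vascular connective tissue outside it. Fibrillar collagens and the small proteoglycans decorin (DCN) and lumican (LUM) are the typical products of connective tissue cells.

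Levels are CPM, the count divided by the library's total and multiplied by 1000000. Lists of values follow the library numbers from 1 upward, and log2 fold changes are given ± their standard error (SE), positive where the group named first is higher, also where only the value and its adjusted p stand in parentheses. A gene was called where its p from the quasi-likelihood test of edgeR, adjusted by Benjamini-Hochberg over all genes, was under 0.05, and every adjusted p below comes from that test. Library totals ran from 8379801 to 31762400 counts. Of the 53 members, 38 had counts enough to be tested: 8 laminin chains, 5 type IV chains, both multiplexins (COL15A1 and COL18A1), 4 basement membrane linkers and proteoglycans (NID1, NID2, HSPG2 and AGRN), 7 fibrillar collagens, 8 other collagens and 4 interstitial proteins (FN1, DCN, LUM and POSTN). The other 15 were LAMA2, LAMA4, LAMC3, COL2A1, COL5A3, COL6A3, COL6A5, COL6A6, COL8A2, COL12A1, COL13A1, COL17A1, COL20A1, COL26A1 and COL28A1. LAMC3 had no count in any library, and none of the 15 averaged above 5 CPM in any group.

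Library 3 of late_MGC (late_MGC 3) stood apart before any test. Its mean correlation with the other libraries of its group was 0.871, the lowest of the 24 libraries. The members summed to 3928 CPM in it, against 410.9 to 614.2 CPM in the other 4 late_MGC libraries and at most 1265 CPM in the other groups. LUM stood at 1621 CPM, POSTN at 588 CPM, LAMB1 at 466 CPM, DCN at 276 CPM and NID2 at 171 CPM. It lay above the other 4 late_MGC libraries for 23 of the 38 tested members (60.5%), against 39.2% of all tested genes, and was the highest of all 24 libraries for 10 of them (26.3%), against 12.5% of all tested genes. COL1A2 at 8.3 CPM and COL12A1, which decorates fibrils, at 18.4 CPM were also the highest of the 24 libraries, and FN1 had 8.2 CPM, against at most 0.348 CPM in the other 4 late_MGC libraries. Other members were low there. COL21A1 (6.37 CPM), LAMB2 (13.5 CPM), COL4A3 (12.3 CPM) and COL6A2 (13.1 CPM) lay below the other 4 late_MGC libraries. LAMA4 and COL6A3 had no count in any late_MGC library. LAMA2 was at 0.0536 CPM in late_MGC 3 and had no count in the other 4.

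The markers of that library differed from the group's label as well. Granulosa markers summed to 3642 CPM in late_MGC 3, against 10727 to 14804 CPM in the other 4 libraries. Most of the sum was SERPINE2, which was higher there, at 3180 CPM against 1107 to 1680 CPM in the other 4. The same sum was 3677 to 5537 CPM in early_MGC, 4014 to 6455 CPM in secondary_GC, 8397 to 10140 CPM in early_CC and 8605 to 35622 CPM in late_CC. FOXL2, a transcription factor of granulosa identity, had no count in late_MGC 3, against 0.522 to 0.786 CPM. The follicle-stimulating hormone receptor FSHR had 10.6 CPM, against 302 to 381 CPM, and aromatase CYP19A1 had 0.107 CPM, against 15.9 to 29 CPM. AMHR2, at 0.429 CPM, lay within the range of the other 4, 0.363 to 1.38 CPM. WNT4 had no count in any late_MGC library. The 12 theca and stroma markers summed to 187 CPM in late_MGC 3, against 24.5 to 44.7 CPM, of which PDGFRA alone made up 145 CPM. THY1 (2.14 CPM), DPT (0.643 CPM) and C7 (0.321 CPM) had no count in the other 4. MFAP5 was at 0.107 CPM, against at most 0.0695 CPM, PTCH1 at 22.2 CPM, against 6.78 to 19.2 CPM, and NR2F2 at 14.4 CPM, against 12 to 15.3 CPM. GLI1 was at 0, against at most 0.421 CPM, and TCF21 at 0.107 CPM, against 0.12 to 0.474 CPM. OGN (0.482 CPM, against 0.487 to 2.4), PDGFRL (0.536, against 0.591 to 0.967) and ASPN (0.75, against 0.73 to 3.81) were not above the other 4. The steroid transporter STAR had 123 CPM, against 1.74 to 4.71 CPM, while CYP17A1, the androgen-making enzyme of theca, had 3 counts. INSL3, a hormone of theca cells, had 1.87 CPM, against 190.4 to 349 CPM in the other 4. With these the 4 genes of the steroidogenic theca list summed to 125 CPM in late_MGC 3, against 193 to 353 CPM. The part of these other transcripts in the members' values was not tested, and comparisons with late_MGC are given with and without this library. In such bulk RNA, more cells of a type cannot be told apart from more RNA per cell.

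**Figure D1:**
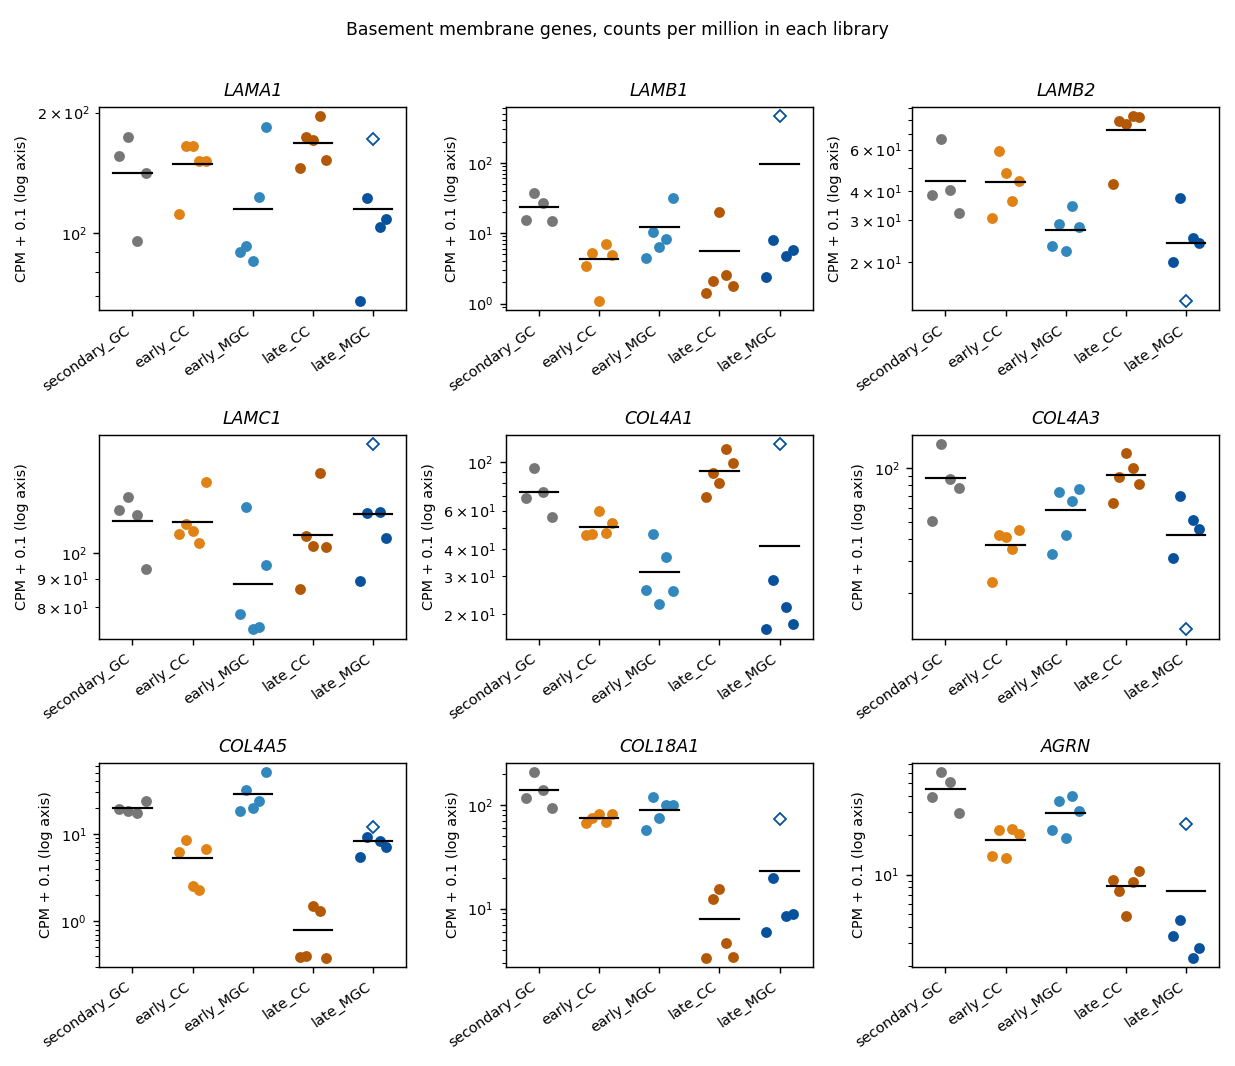
CPM plus 0.1 (log axis) of 9 basement membrane genes in each of the 24 libraries by group; points are libraries, bars are group means and the open diamond is late_MGC 3. LAMA1 and LAMC1 stay within a narrow band, COL18A1 and AGRN are low in both late groups apart from the diamond, and COL4A5 is lowest in late_CC.

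Across the 5 groups, 30 of the 38 tested members differed somewhere, against 65.1% of all tested genes called in that test. Without late_MGC 3 there were 32, against 68.7%. In the comparisons of 2 groups, the percentages after each count are those of all tested genes called higher, lower and in either direction. In late_CC against early_CC, 7 members were higher and 12 lower (22.5%, 22.7% and 45.2%), and without late_MGC 3 9 members were higher and 14 lower (24.8%, 25.1% and 49.9%). In late_MGC against early_MGC, 4 members were higher and 9 lower (9.76%, 9.3% and 19.1%), and without late_MGC 3 5 members were higher and 13 lower (11.7%, 12.4% and 24.1%). In late_CC against late_MGC, 9 members were higher and 8 lower (18.9%, 20.8% and 39.7%), and without late_MGC 3 13 members were higher and 5 lower (21.3%, 20.5% and 41.8%). In early_CC against early_MGC, 2 members were higher and 2 lower (6.7%, 6.39% and 13.1%), and without late_MGC 3 5 members were higher and 5 lower (9.59%, 8.53% and 18.1%). In early_MGC against secondary_GC, 0 members were higher and 2 lower (5.01%, 4.08% and 9.1%), and without late_MGC 3 1 member was higher and 5 lower (6.86%, 6.58% and 13.4%). In early_CC against secondary_GC, 0 members were higher and 1 lower (0.944%, 1.05% and 1.99%), and without late_MGC 3 2 members were higher and 3 lower (2.47%, 2.78% and 5.25%). The members called made up 34.2% in late_MGC against early_MGC, where all genes gave 19.1%, and 50% in late_CC against early_CC, a share close to that of all genes.

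Laminin chains were led by LAMA1, LAMB2 and LAMC1 in every group, late_MGC 3 aside. Per length, as TPM (the share of length-scaled counts, multiplied by 1000000), LAMA1 averaged 15.7 TPM in secondary_GC, 16.3 in early_CC, 12.2 in early_MGC, 17.5 in late_CC and 10.5 in late_MGC without library 3. LAMC1, the gamma chain of most laminins, lay at 18, 17.9, 13.4, 16.1 and 16.2 TPM in the same order. The alternative beta chain LAMB1 averaged under 5 TPM in each of these. The alpha chains LAMA2 and LAMA4 were at or near 0 throughout, and LAMA3 and LAMA5 averaged at most 0.292 TPM.

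LAMA1 had 146, 174, 171, 196 and 153 CPM in late_CC, against 112, 165, 165, 151 and 151 CPM in early_CC. In mural cells it had 67.7, 123, 172, 104 and 109 CPM in late_MGC, against 89.8, 93.1, 85.2, 123 and 184 CPM in early_MGC. These ranges overlapped, and the log2 fold changes were 0.18 ± 0.20 (adjusted p = 0.478) in cumulus cells and 0.08 ± 0.20 (adjusted p = 0.816) in mural cells (-0.06 ± 0.20, adjusted p = 0.865 without late_MGC 3). LAMB2, the beta chain of mature basement membranes in many organs, did differ. It had 42.5, 79.2, 76.5, 83.4 and 82.6 CPM in late_CC, against 30.5, 58.8, 47.7, 36.2 and 43.9 CPM in early_CC, so that 4 late_CC libraries lay above every early_CC library. The log2 fold change was 0.75 ± 0.25 (adjusted p = 0.0170). Its 19.8, 37.4, 13.5, 25.1 and 23.8 CPM in late_MGC overlapped its 23.2, 28.9, 22.1, 34.4 and 27.9 CPM in early_MGC (-0.10 ± 0.25, adjusted p = 0.817, and 0.07 ± 0.24, adjusted p = 0.875 without late_MGC 3). Between cell types LAMB2 was higher in late_CC than in late_MGC by 1.40 ± 0.26 (adjusted p = 1.24e-04) with all libraries and by 1.23 ± 0.24 (adjusted p = 2.03e-04) without late_MGC 3, with every late_CC library above every late_MGC library. LAMA1 was also higher in late_CC than in late_MGC once library 3 was left out (0.51 ± 0.20, adjusted p = 0.0435), against 0.37 ± 0.20 (adjusted p = 0.150) with it.

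LAMC1 rose slightly in mural cells. It had 89, 118, 157, 118 and 106 CPM in late_MGC, against 77.6, 121, 72.8, 73.5 and 95.1 CPM in early_MGC, with overlapping ranges, and the log2 fold change was 0.51 ± 0.15 (adjusted p = 0.0157) with all libraries and 0.43 ± 0.15 (adjusted p = 0.0370) without late_MGC 3. LAMA3 fell in both late groups, to 0.0802 CPM on average in late_CC and 0.0762 CPM in late_MGC (0.0952 CPM without library 3), against 1.12 CPM in early_CC and 1.34 CPM in early_MGC, and it was called with and without late_MGC 3. LAMA5 was lower in late_CC, at 0.144 CPM, than in early_CC, at 1.11 CPM (-2.88 ± 0.98, adjusted p = 0.0187), and in late_MGC than in early_MGC only without late_MGC 3 (-2.90 ± 0.93, adjusted p = 0.0244, against -0.76 ± 0.90, adjusted p = 0.604 with it).

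LAMB1 rested on single libraries. It had 1.32, 1.97, 20, 2.42 and 1.69 CPM in late_CC, against 2.26, 7.98, 466, 4.69 and 5.69 CPM in late_MGC, so that late_CC 3 and late_MGC 3 each stood far above the rest of their group. The log2 fold change of late_CC against late_MGC was -4.16 ± 1.29 (adjusted p = 0.0148) with all libraries and -0.07 ± 0.74 (adjusted p = 0.954) without late_MGC 3. Leaving out late_CC 3 gave -5.81 (adjusted p = 0.00374).

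Type IV collagen, the network former of basement membranes, changed chain by chain. COL4A1 had 68.9, 89.6, 80.6, 115 and 99.4 CPM in late_CC, against 46.4, 46.6, 59.6, 47 and 52.7 CPM in early_CC, with no overlap between the groups. The log2 fold change was 0.84 ± 0.37 (adjusted p = 0.0630) with all libraries and 0.84 ± 0.20 (adjusted p = 9.42e-04) without late_MGC 3, where the estimate is the same and its SE is smaller. In mural cells COL4A1 had 16.9, 28.7, 121, 21.5 and 17.9 CPM in late_MGC, against 25.8, 46.9, 22.2, 36.4 and 25.4 CPM in early_MGC. Library 3 lay above all others and the rest lay within or below the early range (0.41 ± 0.37, adjusted p = 0.472 with it, -0.45 ± 0.21, adjusted p = 0.130 without). COL4A1 was higher in late_CC than in late_MGC by 1.0 ± 0.37 (adjusted p = 0.0331) with all libraries and by 1.86 ± 0.22 (adjusted p = 2.58e-07) without late_MGC 3. COL4A2, its partner chain, was higher in late_CC without late_MGC 3 (1.13 ± 0.37, adjusted p = 0.0156), against 0.82 ± 0.37 (adjusted p = 0.0779) with it.

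COL4A3, a chain of the type IV network of kidney and lung basement membranes, rose in cumulus cells. It had 63.8, 88.6, 121, 99.6 and 81.7 CPM in late_CC, against 22.9, 42.1, 40.9, 35 and 44.7 CPM in early_CC, and every late_CC library lay above every early_CC library (1.31 ± 0.34, adjusted p = 0.00293). In mural cells it had 31.4, 69.7, 12.3, 51.2 and 45.4 CPM in late_MGC, against 32.7, 73.5, 41.8, 64.9 and 76.4 CPM in early_MGC, with overlapping ranges (-0.35 ± 0.34, adjusted p = 0.512, and -0.11 ± 0.27, adjusted p = 0.819 without late_MGC 3). The difference between these stage changes, cumulus minus mural, was 1.66 ± 0.48 (adjusted p = 0.00997) with all libraries and 1.42 ± 0.38 (adjusted p = 0.00452) without late_MGC 3. The direct comparison of late_CC with late_MGC was 0.91 ± 0.34 (adjusted p = 0.0347) with all libraries and 0.67 ± 0.28 (adjusted p = 0.0538) without late_MGC 3, where the call was lost.

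COL4A5 and COL4A6 went the other way. These chains are encoded side by side on opposite strands of the X chromosome, COL4A6 from 56803357 to 57140369 and COL4A5 from 57288214 to 57391723 in the ARS-UCD1.2 build. COL4A5 had 0.286, 0.295, 1.38, 1.21 and 0.282 CPM in late_CC, against 6.17, 8.42, 2.4, 2.2 and 6.71 CPM in early_CC, with no overlap (-2.90 ± 0.43, adjusted p = 1.01e-05). It had 5.32, 9.19, 11.9, 8.11 and 7.02 CPM in late_MGC, against 18.2, 32, 19.7, 24 and 50.9 CPM in early_MGC, again with no overlap (-1.69 ± 0.38, adjusted p = 0.00256, and -1.81 ± 0.39, adjusted p = 0.00129 without late_MGC 3). Cumulus cells had less of it than mural cells at both stages, with log2 fold changes of -2.57 ± 0.39 (adjusted p = 2.53e-04) in early_CC against early_MGC and -3.78 ± 0.44 (adjusted p = 3.75e-07) in late_CC against late_MGC, which was -3.67 ± 0.44 (adjusted p = 2.79e-07) without late_MGC 3. COL4A6, far lower in level, was called in the same direction in all 4 of these comparisons, with and without late_MGC 3, with averages of 0.0383 CPM in late_CC, 0.34 CPM in late_MGC (0.224 CPM without library 3), 0.324 CPM in early_CC and 2.07 CPM in early_MGC. COL4A5 was the only member tied to its identifier by containment rather than by mutual best overlap.

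Smooth muscle and pericyte markers, 7 genes led by MYH11, are set beside these chains. MYH11 averaged 164.8 CPM in secondary_GC, 41.9 in early_CC, 210.7 in early_MGC, 22.65 in late_CC and 52 in late_MGC (60 without library 3). In the same order DES averaged 3.98, 0.704, 3.62, 0.0554 and 0.43 CPM (0.0822 without library 3). CNN1 averaged 11.8, 3.55, 2.68, 0.38 and 1.19 CPM (0.244 without library 3). TAGLN averaged 5.5, 2.57, 2.93, 2.88 and 6.13 CPM (0.266 without library 3). Without late_MGC 3, 5 were tested, and 0 were higher and 2 lower in late_CC against early_CC (24.8% and 25.1% of all tested genes). In late_CC against late_MGC 1 was higher and 1 lower (21.3% and 20.5%), and in late_MGC against early_MGC 0 and 4 (11.7% and 12.4%). In early_CC against early_MGC 0 were higher and 2 lower (9.59% and 8.53%). The sum of the 7 markers was 13.1 to 65.6 CPM (median 17.2) in late_CC, against 38.8 to 55.9 CPM (median 50.1) in early_CC. It was 18.6 to 107 CPM in late_MGC, against 114 to 400.1 CPM in early_MGC. The part of these markers' cells in the COL4A5 and COL4A6 values was not tested.

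Both multiplexins and AGRN were lower in late than in early antral follicles in both cell types. COL18A1, whose tail fragment is known as endostatin, had 3.26, 12.3, 15.4, 4.53 and 3.31 CPM in late_CC, against 66.7, 76, 83, 68.7 and 82 CPM in early_CC, a log2 fold change of -3.24 ± 0.58 (adjusted p = 1.18e-04). It had 5.88, 19.8, 72.9, 8.35 and 8.68 CPM in late_MGC, against 57, 119, 74.5, 101 and 99.6 CPM in early_MGC. Every late_CC library lay below every early_CC library, and in mural cells only late_MGC 3 reached the early range. The mural log2 fold change was -1.96 ± 0.54 (adjusted p = 0.0147) with all libraries and -2.98 ± 0.44 (adjusted p = 3.58e-05) without late_MGC 3. The difference of late_CC from late_MGC rested on late_MGC 3: it was -1.66 ± 0.55 (adjusted p = 0.0197) with that library and -0.64 ± 0.41 (adjusted p = 0.216) without, and leaving out late_CC 1, 4 or 5 gave adjusted p of 0.052 to 0.0553. COL15A1, the other multiplexin, had 0 counts in both late groups, which allows up to 0.0361 CPM in late_CC and 0.0295 CPM in late_MGC, against 1.1 CPM on average in early_CC and 0.561 CPM in early_MGC. It was called lower in both cell types, with and without late_MGC 3.

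AGRN, a heparan sulfate proteoglycan, had 3.3, 4.41, 24.5, 2.22 and 2.66 CPM in late_MGC, against 21.9, 36.8, 18.8, 39.6 and 30.6 CPM in early_MGC. Apart from late_MGC 3 the late libraries lay far below the early ones, with a log2 fold change of -1.99 ± 0.47 (adjusted p = 0.00429) with all libraries and -3.10 ± 0.31 (adjusted p = 6.01e-08) without late_MGC 3. In cumulus cells it had 8.99, 7.37, 4.71, 8.7 and 10.6 CPM in late_CC, against 13.8, 21.7, 13.3, 22.3 and 20.3 CPM in early_CC, with no overlap (-1.17 ± 0.46, adjusted p = 0.0393). That call was lost, with adjusted p of 0.0614 to 0.0894, when early_CC 2, 4 or 5 or late_CC 1, 2, 3 or 4 was left out, and was -1.17 ± 0.26 (adjusted p = 5.53e-04) without late_MGC 3. HSPG2, perlecan, had 3.32, 9.63, 13.2, 6.4 and 6.76 CPM in late_CC, against 11.3, 17.4, 14.5, 14.7 and 21.7 CPM in early_CC, with overlapping ranges (-0.99 ± 0.33, adjusted p = 0.0161). AGRN was higher in late_CC than in late_MGC only without late_MGC 3 (1.11 ± 0.29, adjusted p = 0.00312, against -0.01 ± 0.45, adjusted p = 0.996 with it). Without late_CC 1 the HSPG2 change was -0.75 (adjusted p = 0.0618).

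The nidogens were scarce. NID1 averaged at most 0.468 CPM in any group and was called in no comparison of 2 groups. NID2 had 0, 0.737, 0.277, 0 and 0.141 CPM in late_CC, against 0.209, 1.15, 171, 0.12 and 0.427 CPM in late_MGC, and late_MGC 3 alone exceeded 10 CPM. Its log2 fold change was -7.17 ± 1.75 (adjusted p = 0.00291) with all libraries and -1.16 ± 0.89 (adjusted p = 0.304) without late_MGC 3, and -8.41 (adjusted p = 0.00508) without late_CC 2.

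**Figure D2:**
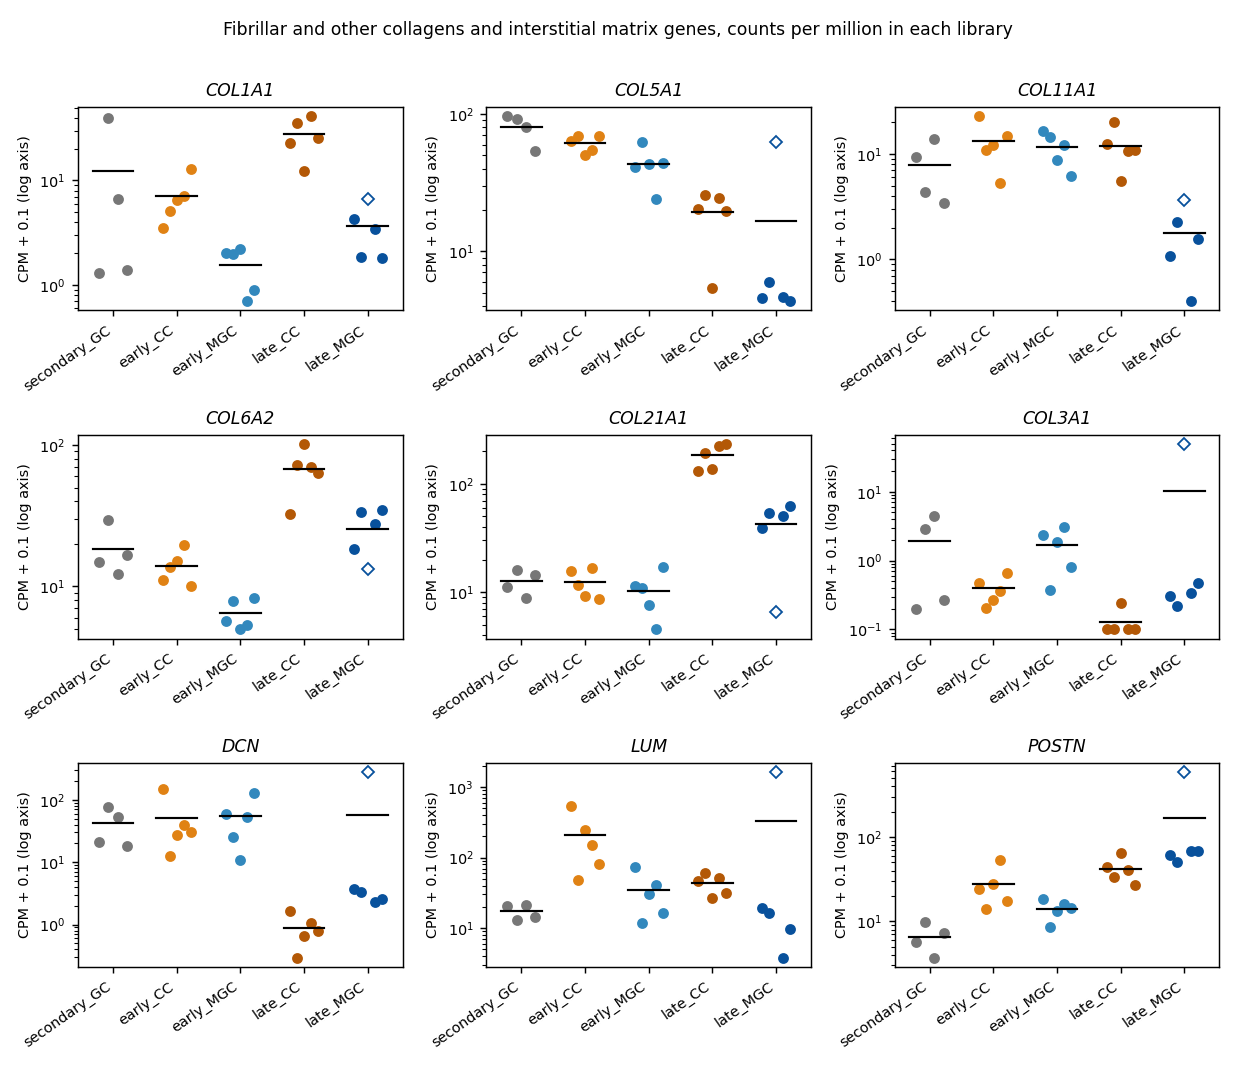
CPM plus 0.1 (log axis) of 9 collagens and interstitial matrix genes in each of the 24 libraries by group; points are libraries, bars are group means and the open diamond is late_MGC 3. COL21A1 and COL6A2 are highest in late_CC, DCN is lowest in the late groups apart from late_MGC 3, and that library tops COL3A1, DCN, LUM and POSTN.

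Among the collagens outside basement membranes, COL21A1 and COL6A2 rose with stage in both cell types. COL21A1 encodes a collagen that associates with fibrils and lies on chromosome 23, from 4026788 to 4168687. It had 132, 193, 138, 224 and 234 CPM in late_CC, against 15.4, 11.6, 9.03, 16.8 and 8.55 CPM in early_CC, with no overlap (3.89 ± 0.42, adjusted p = 3.99e-07). In mural cells it had 39.1, 54.2, 6.37, 50.3 and 62.8 CPM in late_MGC, against 11.2, 10.9, 7.43, 4.42 and 16.9 CPM in early_MGC. There 4 late libraries lay above every early library and late_MGC 3 lay among the early ones (2.23 ± 0.40, adjusted p = 4.19e-04 with it, 2.50 ± 0.26, adjusted p = 1.25e-07 without). The cumulus rise was the larger, by 1.67 ± 0.54 (adjusted p = 0.0222) with all libraries and by 1.39 ± 0.35 (adjusted p = 0.00284) without late_MGC 3. Late_CC also exceeded late_MGC, by 1.87 ± 0.39 (adjusted p = 5.37e-04) with all libraries and by 1.59 ± 0.26 (adjusted p = 1.99e-05) without late_MGC 3.

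COL6A2, a chain of the beaded filaments of type VI collagen, had 32.6, 72, 102, 69.3 and 63.3 CPM in late_CC, against 11, 13.7, 15, 19.5 and 9.96 CPM in early_CC (2.30 ± 0.31, adjusted p = 2.86e-06). It had 18.3, 33.7, 13.1, 27.3 and 34.7 CPM in late_MGC, against 5.62, 7.76, 4.85, 5.25 and 8.16 CPM in early_MGC (2.13 ± 0.31, adjusted p = 3.21e-05, and 2.31 ± 0.29, adjusted p = 2.18e-06 without late_MGC 3). Neither pair of groups overlapped, late_MGC 3 included. It was higher in cumulus than in mural cells at both stages, by 1.21 ± 0.30 (adjusted p = 0.00210) in late_CC against late_MGC, where late_CC 1 lay within the mural range (1.03 ± 0.28, adjusted p = 0.00435 without late_MGC 3), and by 1.04 ± 0.30 (adjusted p = 0.0246) in early_CC against early_MGC, with no overlap. The early call was lost, with adjusted p of 0.0507 to 0.077, when early_CC 3 or 4 or early_MGC 3 or 4 was left out. COL6A1 rose in late_CC against early_CC too, at 1.81 CPM against 0.505 CPM on average (1.84 ± 0.64, adjusted p = 0.0214). COL16A1, another fibril-associated collagen, was low but rose in the same comparison, at 4.69 to 10.2 CPM in late_CC against 0 to 1.21 CPM in early_CC (3.43 ± 0.58, adjusted p = 4.77e-05), and it was not called in mural cells (0.42 ± 0.56, adjusted p = 0.650, and 0.56 ± 0.57, adjusted p = 0.520 without late_MGC 3). The difference between those changes was 3.01 ± 0.79 (adjusted p = 0.00548) with all libraries and 2.87 ± 0.79 (adjusted p = 0.00581) without late_MGC 3.

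COL8A1 fell in late_CC against early_CC and in late_MGC against early_MGC, with averages of 0.321 CPM in late_CC against 1.24 CPM in early_CC and of 0.189 CPM in late_MGC (0.209 CPM without library 3) against 1.22 CPM in early_MGC. COL10A1 fell in late_CC against early_CC (0.767 against 2.84 CPM) and COL14A1 in late_MGC against early_MGC (0.176 against 2.11 CPM, with 0.139 CPM in late_MGC without library 3). COL7A1, the anchoring fibril collagen, was higher in late_CC than in late_MGC (1.12 against 0.122 CPM, with 0.125 CPM in late_MGC without library 3). These calls of COL8A1, COL14A1 and COL7A1 were made with and without late_MGC 3. Without late_MGC 3, COL10A1 was also lower and COL6A1 higher in late_CC than in late_MGC (-1.52 ± 0.54, adjusted p = 0.0247 and 1.73 ± 0.68, adjusted p = 0.0442). COL7A1, COL8A1, COL10A1 and COL14A1 stayed below 3 CPM on average in every group.

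The fibrillar collagens did not move as a block. COL5A1, the chain that sets fibril diameter together with type I collagen, had 20.4, 25.8, 5.33, 24.5 and 19.7 CPM in late_CC, against 63.2, 69.1, 50.7, 54.4 and 69.7 CPM in early_CC, with no overlap (-1.69 ± 0.57, adjusted p = 0.0202). Leaving out late_CC 3, its lowest library, gave -1.46 (adjusted p = 0.0502). In mural cells it had 4.49, 5.86, 62.8, 4.57 and 4.22 CPM in late_MGC, against 41.4, 62.6, 43.4, 24 and 43.6 CPM in early_MGC. The 4 other late libraries lay far below the early ones, and late_MGC 3 lay above them (-1.38 ± 0.57, adjusted p = 0.0965 with it, -3.02 ± 0.30, adjusted p = 7.40e-08 without). COL11A1, a minor fibrillar chain best known from cartilage, had 0.974, 2.18, 3.54, 0.3 and 1.47 CPM in late_MGC, against 16.4, 14.6, 8.69, 12.1 and 6.11 CPM in early_MGC, with no overlap (-2.73 ± 0.51, adjusted p = 5.53e-04, and -3.12 ± 0.53, adjusted p = 1.33e-04 without late_MGC 3). In cumulus cells its levels overlapped, at 12.4, 19.9, 5.47, 10.6 and 10.9 CPM in late_CC against 23, 10.8, 12.2, 5.26 and 14.8 CPM in early_CC (-0.16 ± 0.47, adjusted p = 0.801), and the cumulus change minus the mural change was 2.57 ± 0.68 (adjusted p = 0.00572) with all libraries and 2.96 ± 0.67 (adjusted p = 0.00127) without late_MGC 3. COL11A1 was higher in late_CC than in late_MGC (2.64 ± 0.51, adjusted p = 2.17e-04, and 3.03 ± 0.53, adjusted p = 5.95e-05 without late_MGC 3). COL5A1 was higher in late_CC than in late_MGC only without late_MGC 3 (1.75 ± 0.29, adjusted p = 2.46e-05, against 0.11 ± 0.56, adjusted p = 0.9 with it).

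COL1A1, the main chain of type I collagen, had 23, 35.8, 12.2, 41.6 and 25.4 CPM in late_CC, against 3.4, 5, 6.46, 7.02 and 12.8 CPM in early_CC. Only late_CC 3 fell below the highest early_CC library (1.99 ± 0.69, adjusted p = 0.0222), and without early_CC 1 the change was 1.82 (adjusted p = 0.0558). Late_CC also exceeded late_MGC, where COL1A1 had 4.21, 1.75, 6.59, 3.37 and 1.71 CPM, with no overlap and a log2 fold change of 2.75 ± 0.71 (adjusted p = 0.00405) with all libraries and 3.02 ± 0.79 (adjusted p = 0.00409) without late_MGC 3. COL1A2, its partner chain, had counts in 2 late_CC libraries and in 1 late_MGC library, which was late_MGC 3, and without that library it was called lower in late_MGC than in early_MGC, where it averaged 0.902 CPM. COL27A1, a fibrillar collagen of cartilage, had 1.09, 2.36, 11.1, 1.87 and 0.423 CPM in late_CC, against 1.35, 0.97, 1.11, 0.819 and 0.723 CPM in early_CC, so that the ranges overlapped and late_CC 3 stood apart. The log2 fold change was 1.80 ± 0.82 (adjusted p = 0.0780) with all libraries, 1.80 ± 0.62 (adjusted p = 0.0171) without late_MGC 3 and 0.49 ± 0.74 (adjusted p = 0.617) without late_CC 3. Leaving out late_CC 5 also brought a call, at 2.08 (adjusted p = 0.0428). COL3A1, the fibrillar collagen of soft connective tissue, had 0, 0, 0.138, 0 and 0 CPM in late_CC, against 0.209, 0.121, 49.4, 0.24 and 0.38 CPM in late_MGC. That is 2 counts over the late_CC libraries, so no fold is given, against 0.121 to 0.38 CPM in the late_MGC libraries other than library 3, and COL3A1 was called lower in late_CC with and without that library.

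LUM, POSTN and DCN made up most of the member sum of late_MGC 3. Lumican and decorin are neighbours on chromosome 5, LUM from 20971289 to 20978528 and DCN from 21014376 to 21053400, on the same strand. DCN had 1.54, 0.197, 0.554, 0.967 and 0.704 CPM in late_CC, against 146, 12.4, 27.5, 38.7 and 30.2 CPM in early_CC, with no overlap (-6.02 ± 1.44, adjusted p = 0.00202), and -5.08 (adjusted p = 0.0062) without early_CC 1, its highest library. In mural cells it had 3.69, 3.2, 276, 2.22 and 2.47 CPM in late_MGC, against 58.9, 24.8, 10.6, 53.5 and 129.6 CPM in early_MGC. The 4 other late libraries lay below every early library and late_MGC 3 lay above every early library. The log2 fold change was 0.05 ± 1.09 (adjusted p = 0.980) with all libraries and -4.06 ± 0.80 (adjusted p = 9.93e-04) without late_MGC 3. It was -0.14 (adjusted p = 0.952) without early_MGC 2 and -0.21 (adjusted p = 0.921) without early_MGC 3, both with late_MGC 3 kept. Late_CC lay below late_MGC, with a log2 fold change of -6.23 ± 1.45 (adjusted p = 0.00200) with all libraries and -2.12 ± 0.82 (adjusted p = 0.0447) without late_MGC 3.

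LUM varied widely among early_CC libraries, at 533, 48.3, 243, 151 and 80.8 CPM, against 73.5, 11.8, 30.5, 40.9 and 16.6 CPM in early_MGC. The ranges overlapped in early_CC 2, and the log2 fold change was 2.48 ± 1.19 (adjusted p = 0.181) with all libraries and 2.48 ± 0.61 (adjusted p = 0.00833) without late_MGC 3. In late_CC it had 46.9, 60.7, 26.2, 51.6 and 31.4 CPM, which against early_CC gave -2.32 ± 1.18 (adjusted p = 0.116) with all libraries and -2.31 ± 0.61 (adjusted p = 0.00357) without late_MGC 3. In late_MGC it had 19.2, 16.3, 1621, 3.73 and 9.58 CPM, and against early_MGC the change was 3.17 ± 1.22 (adjusted p = 0.0762) with all libraries and -1.39 ± 0.65 (adjusted p = 0.125) without late_MGC 3. Neither mural value was called, and the sign turned.

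POSTN, periostin, which binds collagen and integrins, was the interstitial gene that rose in mural cells whichever libraries were used. It had 60.6, 50, 588, 68 and 68.6 CPM in late_MGC, against 18.1, 8.53, 13.2, 15.9 and 14.4 CPM in early_MGC, with no overlap. The log2 fold change was 3.57 ± 0.60 (adjusted p = 2.99e-04) with all libraries and 2.27 ± 0.35 (adjusted p = 3.77e-05) without late_MGC 3. In cumulus cells it had 44.4, 33.4, 64, 40.6 and 26.6 CPM in late_CC, against 24, 13.8, 27.3, 53.9 and 17.6 CPM in early_CC, with overlapping ranges (0.62 ± 0.55, adjusted p = 0.369). The cumulus change minus the mural change was -2.94 ± 0.79 (adjusted p = 0.00712) with all libraries and -1.64 ± 0.47 (adjusted p = 0.00768) without late_MGC 3. Late_CC lay below late_MGC with all libraries (-2.09 ± 0.56, adjusted p = 0.00554), and without late_MGC 3 the call was lost (-0.79 ± 0.34, adjusted p = 0.0610). FN1, fibronectin, was near 0 in most libraries and reached 8.47 CPM in early_CC 3, 6.68 CPM in early_MGC 4, 3.04 CPM in late_CC 3 and 8.2 CPM in late_MGC 3. It was called in no comparison.

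**Figure D3:**
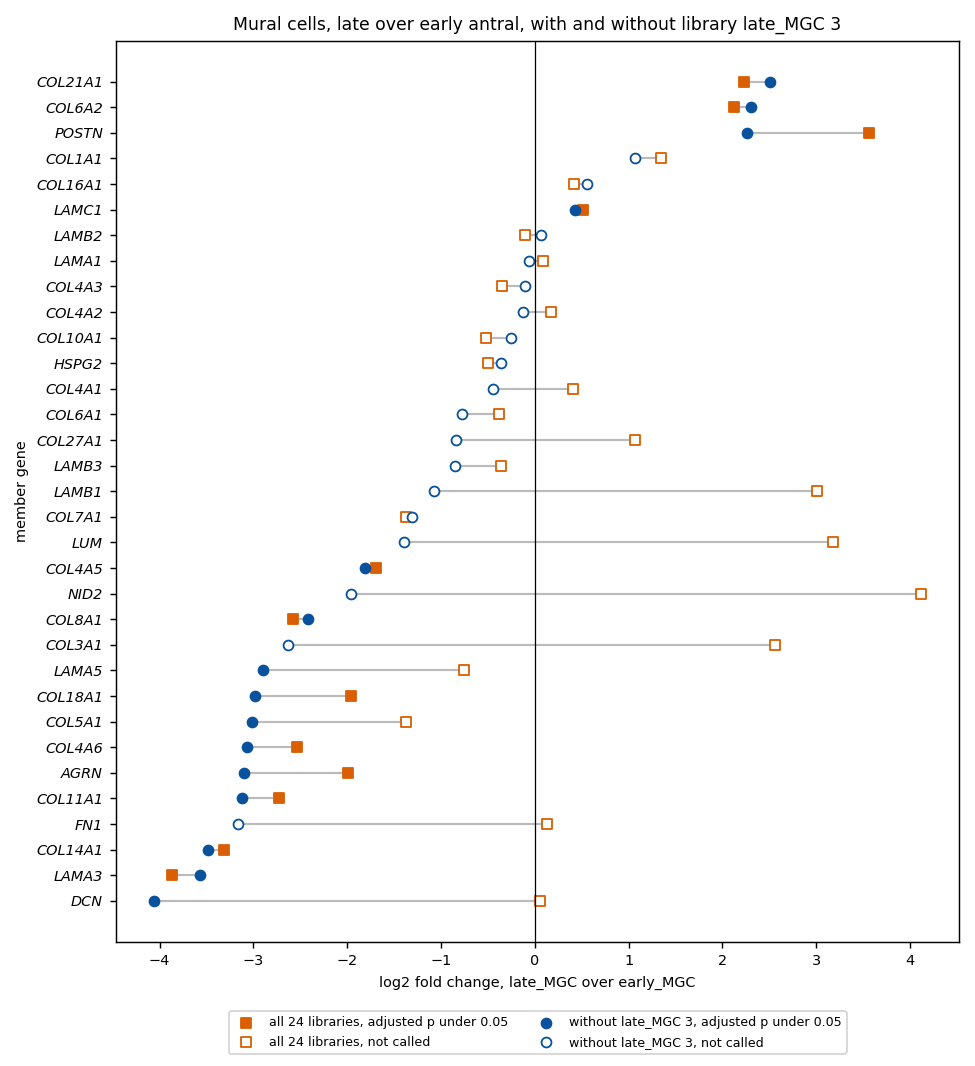
Log2 fold change of late_MGC over early_MGC for reported members averaging at least 1 CPM in some group, with all 24 libraries (squares) and without late_MGC 3 (circles); filled symbols have adjusted p under 0.05, and COL1A2 and COL15A1, at 0 in the other 4 late_MGC libraries, are left out. DCN stands at 0.05 with all libraries and at -4.06 without late_MGC 3, LUM at 3.17 and -1.39, while COL21A1, COL6A2, COL4A5 and COL14A1 barely shift.

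**Figure D4:**
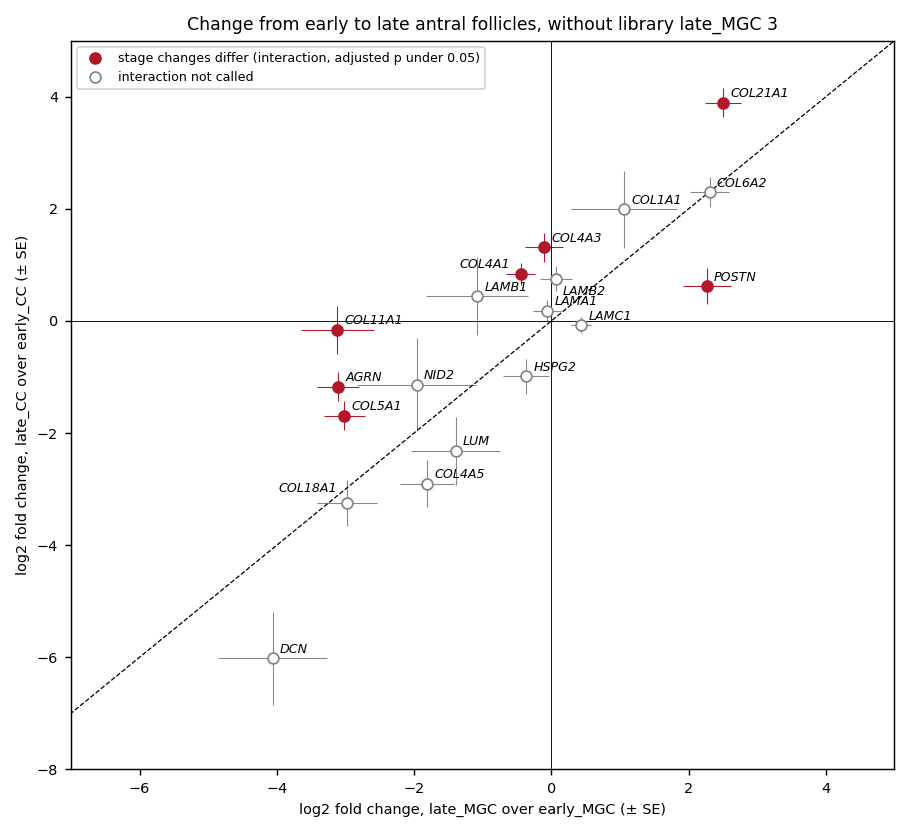
Log2 fold change of late over early antral follicles in cumulus cells (y axis) against that in mural cells (x axis), without late_MGC 3, for reported members averaging at least 10 CPM in some group other than COL3A1; bars are SE and the dashed line marks equal change. DCN, COL18A1 and COL4A5 are low on both axes and COL21A1 and COL6A2 high on both, while AGRN, COL5A1 and COL11A1 lie above the line.

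The test of whether the stage change differs between cell types called 8 members with all libraries, 4 in each direction (14.5% of all tested genes were called higher, 16.9% lower and 31.4% in either direction). Without late_MGC 3 it called 11, 10 of them with a more positive stage change in cumulus than in mural cells and 1 with a less positive one (18.1%, 18.4% and 36.4%). The change of COL4A3, COL21A1, COL11A1 and COL16A1 was called more positive in cumulus cells, and that of POSTN less positive, both with and without late_MGC 3. The calls of LAMC1, DCN and LUM were made only with late_MGC 3: their values were -0.59 ± 0.21 (adjusted p = 0.0317), -6.07 ± 1.77 (adjusted p = 0.0129) and -5.49 ± 1.70 (adjusted p = 0.0185) with it and -0.51 ± 0.21 (adjusted p = 0.0556), -1.96 ± 1.04 (adjusted p = 0.147) and -0.92 ± 0.85 (adjusted p = 0.422) without. LAMC1 also lost its call without early_CC 5, early_MGC 1, 3 or 5, or late_CC 1, 2 or 5, with adjusted p of 0.0509 to 0.111. Without early_CC 1 the DCN value was -5.13 (adjusted p = 0.0315) and the LUM value -4.77 (adjusted p = 0.0407). Leaving out late_MGC 3 added AGRN (1.93 ± 0.39, adjusted p = 3.50e-04), COL4A1 (1.29 ± 0.29, adjusted p = 0.00114) and COL5A1, whose sign turned (-0.31 ± 0.79, adjusted p = 0.802 with it, 1.33 ± 0.38, adjusted p = 0.00718 without). It also added COL1A2, COL6A1 and COL27A1, none above 5 CPM on average in any group.

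Against secondary_GC, 1 of the 38 tested members was called in early_CC and 2 in early_MGC, where 1.99% and 9.1% of all tested genes were called in that order. COL4A5 fell in early_CC, with 6.17, 8.42, 2.4, 2.2 and 6.71 CPM against 19.4, 18, 17.4 and 23.8 CPM in secondary_GC and no overlap (-1.90 ± 0.39, adjusted p = 0.00935). COL6A2 fell in early_MGC, with 5.62, 7.76, 4.85, 5.25 and 8.16 CPM against 14.8, 29.3, 12.2 and 16.5 CPM in secondary_GC and no overlap (-1.39 ± 0.32, adjusted p = 0.00884). COL1A1 was called lower in early_MGC, with 1.91, 1.89, 2.1, 0.597 and 0.792 CPM against 1.18, 39.6, 6.52 and 1.29 CPM in secondary_GC (-2.89 ± 0.77, adjusted p = 0.0226). That call rested on secondary_GC 2: without it the change was -0.88 (adjusted p = 0.38), and leaving out early_MGC 4 or 5 gave adjusted p of 0.0522 and 0.0527.

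Without late_MGC 3, which enters these comparisons only through the spread shared by all groups, more members passed. In early_CC against secondary_GC, POSTN (2.13 ± 0.37, adjusted p = 0.00119) and LUM (3.67 ± 0.71, adjusted p = 0.00409) were higher and AGRN (-1.28 ± 0.27, adjusted p = 0.00468) and COL4A3 (-1.22 ± 0.27, adjusted p = 0.00731) lower. POSTN had 24, 13.8, 27.3, 53.9 and 17.6 CPM in early_CC, against 5.53, 9.6, 3.61 and 7.26 CPM in secondary_GC, and LUM there had 20.7, 12.8, 21.1 and 14.5 CPM, with no overlap for either gene. In early_MGC against secondary_GC, POSTN was higher (1.28 ± 0.36, adjusted p = 0.0204) and COL4A1 (-1.06 ± 0.21, adjusted p = 0.00178), COL4A2 (-1.16 ± 0.36, adjusted p = 0.0323) and COL5A1 (-0.79 ± 0.27, adjusted p = 0.0477) were lower. COL4A1 had 25.8, 46.9, 22.2, 36.4 and 25.4 CPM in early_MGC, against 68.7, 93.8, 72.6 and 56 CPM in secondary_GC, with no overlap. In early_CC against early_MGC the added members were COL4A1 (0.57 ± 0.20, adjusted p = 0.0475), HSPG2 (0.89 ± 0.31, adjusted p = 0.0480) and LUM, which were higher, and AGRN (-0.82 ± 0.26, adjusted p = 0.0251), COL4A3 (-0.75 ± 0.26, adjusted p = 0.0419) and COL3A1 (-2.58 ± 0.90, adjusted p = 0.0449), which were lower.

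**Figure D5:**
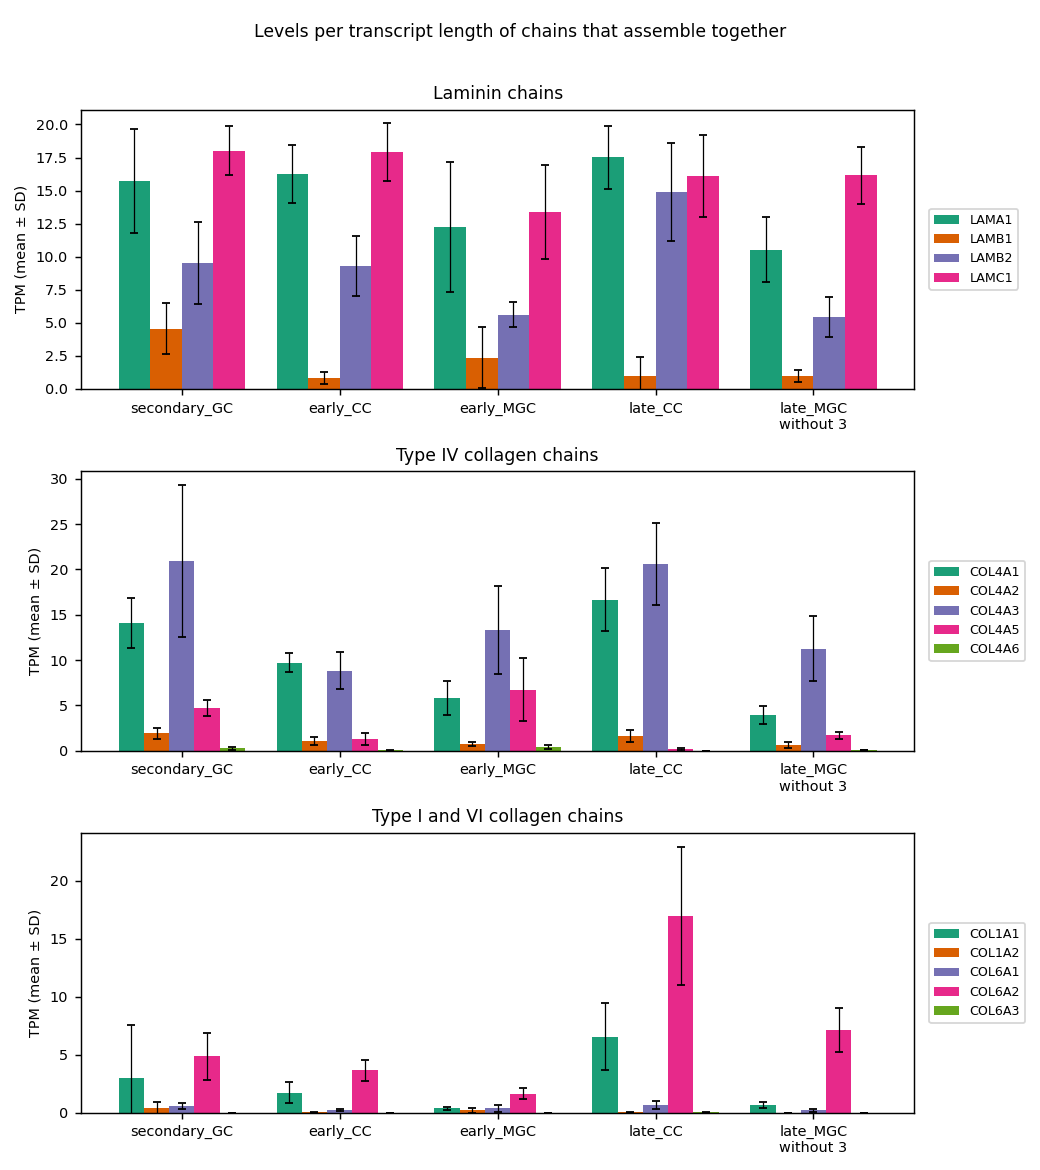
Mean ± SD of TPM of chains of laminin and of type IV, I and VI collagen, in secondary_GC (n = 4), early_CC, early_MGC and late_CC (n = 5 each) and late_MGC without library 3 (n = 4). LAMB1 and LAMB2 are alternative beta chains that do not share a trimer. COL4A1 exceeds COL4A2, COL6A2 exceeds COL6A1 and COL6A3, and COL1A1 exceeds COL1A2 in each group shown.

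Chains that share a trimer were present at unequal levels per length. COL4A1 and COL4A2, which assemble as 2 chains of the first with 1 of the second, lie head to head on chromosome 12, COL4A1 from 84863917 to 84995777 and COL4A2 from 85040120 to 85153241. COL4A1 exceeded COL4A2 in all 24 libraries, and the ratio of group mean TPM was 7.37 in secondary_GC, 9.41 in early_CC, 7.96 in early_MGC, 10.4 in late_CC and 9.47 in late_MGC, which was 6.28 without library 3. COL6A2 exceeded COL6A1 in every library as well, with ratios between 4.64 in early_MGC and 26.4 in late_MGC, where it was 40.2 without library 3, and COL6A3, the long partner chain of type VI collagen, had no count outside late_CC, where it averaged 0.0138 CPM. COL1A1 averaged 6.55 TPM in late_CC, against 0.0327 TPM of COL1A2 in the same libraries. COL4A3, which in human and mouse assembles with the COL4A4 and COL4A5 chains, averaged 20.6 TPM in late_CC, against 0.154 TPM of COL4A5 there. The COL4A5 gene model, tied to its name by containment only, may be partial, which limits this contrast. The beta chains LAMB2 and LAMB1 are alternatives that do not share a trimer. LAMB2 exceeded LAMB1 in all but 2 libraries, and in late_MGC 3 LAMB1 had 86.4 TPM against 2.75 TPM of LAMB2. These are transcript levels over the exons of each gene model and say nothing of protein.

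In late_CC against early_CC without late_MGC 3, 24.8% of all tested genes were higher and 25.1% lower, and the counts of related lists stand beside these shares. Of 27 tested processing genes, 14 were higher and 5 lower in late_CC against early_CC without late_MGC 3, with a median log2 fold change of 0.84, against 0.04 over all tested genes. The counts were the same with all libraries. PLOD2, a lysyl hydroxylase, averaged 679.7 ± 284 CPM in late_CC and 167 ± 16.2 CPM in early_CC (SD, n = 5 each, log2 fold change 2.0), and P3H3, of the prolyl 3-hydroxylase family, averaged 141 ± 54.6 CPM in late_CC and 22.8 ± 6.11 CPM in early_CC (2.62). PCOLCE2, an enhancer of procollagen cleavage, and PXDN, the peroxidase that crosslinks type IV collagen, fell in the same comparison (-3.5 and -3.4). In late_CC against late_MGC, 14 processing genes were higher and 2 lower without late_MGC 3 (21.3% and 20.5% of all tested genes), and 13 and 6 with it (18.9% and 20.8%). In late_MGC against early_MGC, 7 were higher and 4 lower without late_MGC 3 (11.7% and 12.4% of all tested genes), and 5 and 0 with it (9.76% and 9.3%).

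Without late_MGC 3, the shares of all tested genes called higher and lower were 24.8% and 25.1% in late_CC against early_CC. They were 11.7% and 12.4% in late_MGC against early_MGC, and with that library 22.5% and 22.7%, and 9.76% and 9.3%. Of 19 tested matrix receptors, 9 were higher and 3 lower in late_CC against early_CC without late_MGC 3 (10 and 1 of 21 with it) and the median log2 fold change was 0.78, among them the collagen receptor subunit ITGA2 (log2 fold change 3.11). In late_MGC against early_MGC 3 were higher and 4 lower without late_MGC 3 (4 and 2 with it), with the laminin receptor BCAM lower (-2.14). Of 18 tested genes of matrix turnover, 6 were higher and 4 lower in late_CC against early_CC without late_MGC 3 (5 and 4 with it), and 1 higher and 6 lower in late_MGC against early_MGC (2 and 3 with it), with medians of 0.23 and -0.74. TIMP3, a protease inhibitor held in the matrix, fell in both, with log2 fold changes of -3.84 in late_CC and -4.07 in late_MGC without library 3. It averaged 13.2 ± 8.71 CPM in late_CC and 187 ± 45 CPM in early_CC (SD, n = 5 each). Of 30 tested genes of other matrix, 7 were higher and 8 lower in late_CC against early_CC without late_MGC 3 (6 and 5 with it) and the median was 0.15, with SMOC1, a secreted calcium-binding basement membrane protein, lower (-5.28). In either direction, the share of other matrix genes called in late_CC against early_CC was close to the 49.9% of all tested genes.

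Beside the late_CC results stand the following marker sums. The 12 theca and stroma markers summed to 71.3 to 127 CPM in late_CC, against 22 to 30.2 CPM in early_CC. They were led in late_CC by PTCH1 (37 CPM on average) and PDGFRA (32 CPM). Of the members, DCN and COL3A1 had their lowest group average per length in late_CC, and COL1A1, COL6A2 and COL16A1 their highest. The 4 steroidogenic theca genes summed to 32.1 to 602 CPM (median 485) in late_CC, against 55.5 to 124 CPM (median 107.5) in early_CC. Nearly all of this was INSL3, which averaged 401.9 CPM in late_CC and 94.2 CPM in early_CC. STAR averaged 4.9 and 2.53 CPM in the same order. Outside late_MGC 3, CYP17A1 had no count in any library and LHCGR reached at most 0.415 CPM. Endothelial markers summed to 3.38 to 5.36 CPM in late_CC, against 1.84 to 4.9 CPM in early_CC, and blood markers reached 22.3 CPM in 1 late_CC library, against at most 2.27 CPM in early_CC. Endothelial markers reached 25.6 CPM in late_MGC 3, mostly CLDN5 at 16.7 CPM, against at most 2.78 CPM in the other late_MGC libraries. VWF had 4.07 CPM, against 0.0949 to 0.487 CPM, TEK 3.11 CPM, against 0.209 to 1.69 CPM, and KDR 1.61 CPM, against at most 0.302 CPM. PECAM1, ESAM, TIE1, EMCN and ROBO4 had no count there and CDH5 had 1, and each had at most 0.121 CPM in the other late_MGC libraries. The part of these transcripts in the members' values was not tested.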

How the data were processed

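The 24 libraries were made from granulosa cell RNA of cattle with the SMART-Seq v4 Ultra Low Input and Nextera XT kits, per the labels' protocols. The authors deposited 1 table of read counts per gene, and the submitters' processing notes name fastp 0.20.0, HISAT2 2.1.0, SAMtools 1.10 and featureCounts 2.0.0. Per the file headers, reads over exons were summed per Ensembl gene with no option for strand, so overlapping and antisense genes cannot be told apart. A column of undetermined reads, 1 column of no sample, was not used. The column names of late_MGC and secondary_GC give the group but do not identify the sample, so these libraries were numbered in column order and the numbers only name them.

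The table holds identifiers without names. Symbols were taken from RefSeq genes of ARS-UCD2.0 by position on the same chromosome in ARS-UCD1.2, and 52 members were mutual best overlaps. Strands were not compared. COL4A5 was taken by containment, a step chosen after seeing the table. It asked for 90% of the shorter span to be covered and an overlap of at least 0.4 of the joint span. The other members needed at least 0.5, so the gene model used for COL4A5 may be partial. Of 12219 genes averaging 1 CPM or more, 10806 (88.4%) were named, and 1039 were still named when positions were shifted by 1000000 bases.

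Counts were tested with edgeR 4.0.16 (R 4.3.3) by the quasi-likelihood test with TMM scaling and its default expression filter, with all groups in 1 model, which left 14298 genes, and 14103 without late_MGC 3. Because all groups share the estimate of the spread, leaving out late_MGC 3 also changes calls of comparisons it is not part of. The SE is the log2 fold change divided by the square root of its F statistic. CPM and TPM were computed from the counts, the totals and the deposited exon lengths. Intervals and limits from counts cover counting error only.

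Alternatives were DESeq2 1.42.0, limma-voom (limma 3.58.1), other size factors, other filters, only the groups compared, a replicate block and leaving out libraries. Same-numbered libraries of groups that share numbers in the labels were compared in 15 pairs and correlated between -0.15 and 0.242, with 4 pairs over 0.1. Such values do not settle whether the numbers pair libraries, and the main tests did not pair them. The members and lists were chosen with earlier results of these data known. Values in every library are given for members called in some comparison and averaging at least 10 CPM in some group, and 17 genes are named whatever their result. Lower members named with values were chosen after their values were seen. The values of 1 member are not reported here, though it is among the members counted.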

Additional observations from a re-analysis of the deposited data

Results flagged for a closer look

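Within groups of 4 or 5 libraries, 17 values of 21 members in 5 groups stood apart by Dixon's test at a level of 1 in 20. The 21 members average at least 10 CPM in some group. NID2 and COL3A1 do so only through late_MGC 3, with at most 6.1 and 4.32 CPM in the other 23 libraries. Their flags in late_MGC 3 follow from that choice, so the number of flags is not set against a chance rate. Late_MGC 3 held 10 of them: LUM at 1621 CPM, POSTN at 588.3 CPM, LAMB1 at 466 CPM, DCN at 276.1 CPM, NID2 at 171.2 CPM, COL4A1 at 121.4 CPM, COL18A1 at 72.9 CPM, COL5A1 at 62.8 CPM, COL3A1 at 49.4 CPM and AGRN at 24.5 CPM. The others were spread over 5 libraries. COL1A1 reached 39.6 CPM in secondary_GC 2, and COL3A1 reached 0.138 CPM in late_CC 3, where its group was otherwise at 0. DCN was high in early_CC 1, at 146 CPM, in the library where LAMA1 was low, at 111.5 CPM. LAMB1 was high in early_MGC 5, at 32 CPM, and in late_CC 3, at 20 CPM. LAMB2 was low in late_CC 1, at 42.5 CPM.

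The change from early to late antral follicles differed between cumulus and mural cells by a test of the difference itself in 7 members averaging at least 10 CPM. The cumulus change minus the mural change was 2.57 on the log2 scale for COL11A1, 1.67 for COL21A1, 1.66 for COL4A3, -0.59 for LAMC1, -2.94 for POSTN, -5.49 for LUM and -6.07 for DCN. Without late_MGC 3 the calls of LAMC1, LUM and DCN were lost.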

How the results depend on the processing

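Across 64 results for single genes and 1219 alternative values, 1086 kept direction and side of the threshold, 59 passed it newly, 66 lost it and 8 reversed. The reversals were DCN in late_MGC against early_MGC, 0.05 with all libraries, -2.34 with limma-voom, -4.00 without 3 libraries left out together (late_MGC 3, late_CC 3 and early_MGC 4), -0.14 without early_MGC 2, -0.21 without early_MGC 3 and -4.06 without late_MGC 3, and the COL5A1 interaction, -0.31 with all libraries, 0.48 with limma-voom, 1.67 without the 3 libraries and 1.33 without late_MGC 3. The 3 libraries had mean correlations with their own group of 0.8709, 0.9145 and 0.9234 in that order, and secondary_GC 2, which was kept, had 0.9216. Leaving out 1 library at a time gave -4.06 to 0.51 for DCN and -0.55 to 1.33 for COL5A1. The cause was not tested.

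Counts of members called moved by over 1.5 times in these cases, and the numbers in parentheses are the counts over all tested genes in the same order. These were 14298 genes, 14179 without the 3 libraries and 12379 to 13398 with only the groups compared. Early_MGC against secondary_GC gave 2, and 4 with DESeq2, 4 with only the groups compared and 7 without the 3 libraries (1301, 1850, 1006 and 1929). Early_CC against secondary_GC gave 1, and 5 with DESeq2, 3 with limma-voom, 9 with only the groups compared and 9 without the 3 libraries (285, 728, 603, 964 and 1304). Early_CC against early_MGC gave 4, and 12 with only the groups compared and 9 without the 3 libraries (1871, 3035 and 2484). With only the groups compared, late_MGC against early_MGC gave 8 and late_CC against late_MGC 9 (1612 and 4659), where all groups gave 13 and 17 (2725 and 5673). In the mural comparison that setting lost AGRN (adjusted p = 0.0586), COL18A1 (0.0614) and LAMC1 (0.0976), by edgeR's test. With limma-voom, late_CC against late_MGC had 11 higher and 3 lower.

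Leaving out 1 library at a time gave 27 to 32 members for any difference, 16 to 23 for late_CC against early_CC, 12 to 18 for late_MGC against early_MGC, 14 to 18 for late_CC against late_MGC, 2 to 10 for early_CC against early_MGC, 7 to 11 for the interaction, 1 to 6 for early_MGC against secondary_GC and 1 to 5 for early_CC against secondary_GC. Over all tested genes (14095 to 14608) the first 4 ranges were 8655 to 9691, 5727 to 7031, 2093 to 3396 and 4857 to 5891. The last 4 were 1222 to 2555, 3826 to 5138, 516 to 1895 and 150 to 741. A replicate block could be fitted for 2 comparisons: it gave 22 calls in late_CC against early_CC and 11 in early_CC against early_MGC. Of all 13336 genes tested there, 6912 and 2656 were called. Whether the numbers pair the libraries is not known. Other size factors moved the median of all genes by at most -0.063 on the log2 scale. A count of 0 over a group allows 0.0244 to 0.0402 CPM, which limits what can be said of the rarest chains.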
